A study of Mus musculus with 4 samples.

Results

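Hearts of mice with sepsis and low-level tragus stimulation were compared with hearts of sham mice, in 3 classes of cells: macrophages, fibroblasts and endothelial cells. Cells were selected on measured values, namely the UMI counts of 9 rule genes in each barcode. Barcodes with at least 500 UMIs (unique molecular identifiers, each 1 counted transcript), at least 200 genes and at most 20% mitochondrial UMIs were kept. A kept barcode was placed in the macrophage class when C1qa, C1qb and C1qc together reached 20 per 10000 UMIs and Col1a2, Dcn and Col3a1 together stayed under 20. The fibroblast class needed at least 50 per 10000 UMIs of the same 3 matrix genes and no UMI of Cdh5 or Ptprc. The endothelial class needed at least 2 UMIs of Cdh5 and Pecam1 with the matrix genes under 20 per 10000. The sham and stimulated libraries held 12483 such barcodes, out of 17613 kept in those libraries and 41542 kept in the whole series of 43074 barcodes. Of the 12483 barcodes, 244 met both the macrophage and the endothelial rule and were counted in each of those classes.

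The study made 4 libraries of whole mouse heart, "all cells in heart" per the labels, with 1 library per group. The groups are control, sham, sepsis by cecal ligation and puncture (CLP, a surgical model of sepsis in which gut bacteria leak into the abdomen), and CLP with low-level tragus stimulation. The label of the last group names sepsis in its title and only the stimulation in its treatment field, and spells the site both "tagus" and "tragus". The tragus is a part of the outer ear served by a branch of the vagus nerve. Strain, age, sex, animals per library, the stimulation schedule and the sampling time were not stated in the labels. Below, the 4 groups are called control, sham, CLP and stimulated.

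Sepsis brings bacterial products into the blood. Macrophages, fibroblasts and vessel cells sense them through Toll-like receptors and through cytokines such as interleukin 1 and interleukin 6. The NF-kappaB and STAT3 factors they switch on drive acute phase genes, which encode secreted proteins that bind iron, haem, lipids and proteases. Resident macrophages of the heart, known by Timd4, Lyve1 and Folr2, clear dying cells. Macrophages are often sorted into an inflammatory state, M1, and a repair state, M2, and the series title concerns a shift towards M2.

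Each group is 1 library, so differences could not be set against a spread between replicates, and the values are given without tests or p-values. Levels are CPM, the UMIs of a gene scaled to a fixed total of UMIs of the class. A ratio is a log2 ratio of summed counts, with a 95% interval that covers counting error only. A gene was called higher or lower when its log2 ratio was at least 1 in size, the interval left out 0 and the pair of libraries held at least 20 counts. The ratios of CLP to sham and of stimulated to sham share the sham library, so they are given side by side and not related to each other. Barcodes within a library are not replicates, and fewer cells of a subtype cannot be told apart from less RNA per cell.

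The libraries held 8741 to 15964 barcodes, and 8331 to 15598 were kept, at a median of 3063 to 5520 UMIs. Between 19 and 60 barcode sequences were shared by any pair of libraries, and 27 by sham and stimulated. All 8 listed markers of each class were detected in that class in every library. Their summed level was lower in the stimulated than in the sham library in all 3 classes, at 8740 against 16940 CPM in macrophages, 15812 against 28691 CPM in fibroblasts and 13099 against 24394 CPM in endothelial cells. Some single markers went the other way: Ctss and Cd14 in macrophages, Tcf21 in fibroblasts and Cldn5 in endothelial cells were higher in stimulated than in sham.

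The endothelial class of the stimulated library went partly against its label. All 8 neutrophil markers were detected there, with a summed level of 6641 CPM, against 714 CPM in sham, 4404 CPM in CLP and 146 CPM in control. S100a8 and S100a9 held most of it, at 3309 and 3174 CPM in stimulated. A stricter set was therefore made after the data were seen: endothelial barcodes with Cdh5, no UMI of Ptprc, and C1q under 20 per 10000 UMIs. It kept 1620 of the 1932 sham barcodes (83.9%) and 474 of the 725 stimulated barcodes (65.4%). In this set the summed level of the neutrophil markers was 173 CPM for sham and 561 for stimulated, and the endothelial markers to 27466 and 23358 CPM. Endothelial genes below are given for this strict set unless the whole class is named, and list counts for both.

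Macrophages made up 41.0% of kept sham barcodes (95% exact binomial interval 40.003 to 42.05) and 37.9% of stimulated ones (36.9 to 38.9), against 32.7% in control and 22.9% in CLP. Fibroblasts were 18.3% in sham, 17.0% in stimulated, 21.4% in control and 23.6% in CLP. Endothelial barcodes were 21.5% in sham and 8.39% in stimulated, against 23.3% and 28.3% in control and CLP, and the strict set was 18.1% in sham and 5.48% in stimulated. The endothelial share of the stimulated library thus lay below that of each other library, while its macrophage share lay between those of control and sham. Near the thresholds, 56 sham and 171 stimulated barcodes lay just inside the macrophage rule, at 20 to 25 C1q UMIs per 10000, and 182 and 278 just outside it, at 15 to 20. Just inside the fibroblast rule (50 to 60) were 39 and 109 barcodes and just outside it (40 to 50) 40 and 110. At 2 UMIs the endothelial rule held 199 and 156 barcodes, and 569 and 572 had 1 UMI. The median C1q sum in macrophages, which the rule used, was 161.2 per 10000 in sham and 64.4 in stimulated.

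**Figure D1:**
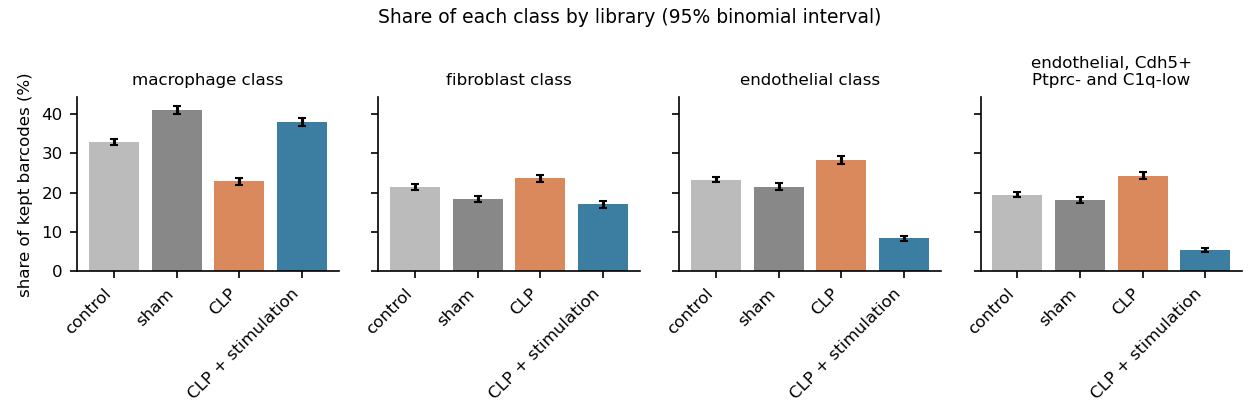
Share of kept barcodes in each class (vertical axis, percent) for the 4 libraries, with exact 95% binomial intervals that cover counting error only; the strict endothelial set is drawn beside the endothelial class. The stimulated library has an endothelial share of 8.39% against 21.5% in sham, and macrophage shares of 37.9% and 41.0%.

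Across all genes, more were called lower than higher. In macrophages 864 of 13637 genes were called higher in stimulated than in sham (6.34%) and 3321 lower (24.4%). In fibroblasts the shares were 6.73% higher and 25.7% lower of 13045 genes, and in the endothelial class 10.6% and 24.9% of 13102. The strict endothelial set gave 7.1% higher and 21.8% lower of 12103. The CLP library against sham gave 4.72% higher and 15.8% lower in macrophages, 3.33% and 7.93% in fibroblasts and 4.34% and 6.72% in the whole endothelial class. Sham against control, which shows how far a pair of libraries without sepsis differed, gave 1.25% and 2.5% in macrophages, 0.756% and 1.1% in fibroblasts and 1.36% and 0.763% in the whole endothelial class. The median log2 ratio of stimulated to sham over all genes was −0.29 in macrophages, −0.31 in fibroblasts and −0.28 in the endothelial class. Scaling by TMM, which assumes that most genes keep their level, takes out a shift of −0.27, −0.29 and −0.25, and the higher share of the calls then went from 20.6% to 34.0%, from 20.8% to 36.3% and from 29.8% to 43.6%. List medians below are read beside these all-gene medians.

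Saa3 was among the 10 highest named ratios in each class, Lcn2 in macrophages and fibroblasts, and Cxcl13 in macrophages and the whole endothelial class. In the strict endothelial set Cxcl13 was 6.65 CPM, below the 12.9 CPM of lymphocytes of the stimulated library. Saa3 encodes serum amyloid A3, a lipid-binding acute phase protein, Lcn2 encodes lipocalin 2, which binds bacterial iron carriers, and Cxcl13 encodes a chemokine for B cells. Their promoters, from 250 bases before to 50 after the RefSeq start site (GRCm38.p6), are shown because C/EBP and NF-kappaB are the factors best known for driving acute phase genes. Capitals mark matches, on either strand, to the C/EBP motif TTGCNNAA or the NF-kappaB motif GGGANNNNCC. The Saa3 window is chr7:46715627-46715926 on the minus strand, with a C/EBP match at −99. The Lcn2 window is chr2:32387690-32387989 on the minus strand, with a C/EBP match at −216. The Cxcl13 window is chr5:95956689-95956988 on the plus strand, with a C/EBP match at −164 and an NF-kappaB match at −63; the 2 matches do not overlap.
Saa3: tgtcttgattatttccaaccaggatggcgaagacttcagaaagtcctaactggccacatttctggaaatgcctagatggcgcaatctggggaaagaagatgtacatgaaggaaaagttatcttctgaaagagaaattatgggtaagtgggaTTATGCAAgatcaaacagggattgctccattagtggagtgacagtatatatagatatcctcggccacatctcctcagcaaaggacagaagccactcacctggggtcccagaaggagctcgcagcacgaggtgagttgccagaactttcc
Lcn2: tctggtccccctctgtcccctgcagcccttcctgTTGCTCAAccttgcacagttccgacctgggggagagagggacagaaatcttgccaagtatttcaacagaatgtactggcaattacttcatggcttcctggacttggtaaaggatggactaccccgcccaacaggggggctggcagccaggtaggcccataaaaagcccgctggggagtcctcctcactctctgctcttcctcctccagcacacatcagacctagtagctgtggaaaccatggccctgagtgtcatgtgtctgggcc
Cxcl13: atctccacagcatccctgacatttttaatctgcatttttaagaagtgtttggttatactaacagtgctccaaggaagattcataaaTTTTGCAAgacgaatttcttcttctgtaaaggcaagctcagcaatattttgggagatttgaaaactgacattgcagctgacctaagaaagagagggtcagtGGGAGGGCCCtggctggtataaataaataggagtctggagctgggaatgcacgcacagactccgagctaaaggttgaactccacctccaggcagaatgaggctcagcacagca
Of 13 acute phase and related genes looked up, 9 had a RefSeq promoter entry, 6 held a C/EBP match and 3 an NF-kappaB match. Of all 32851 promoters of that length, 10.8% held the C/EBP motif, 20.73% the NF-kappaB motif and 1.717% both. A match describes these letters only. Csf3, Hp, Serpina3m and Prg4 were also looked up.

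The acute phase list had the highest median of the lists measured in macrophages, fibroblasts and endothelial cells alike. In macrophages 22 of its 25 measured members were called higher and 0 lower, with a median log2 ratio of 2.89. Fibroblasts had 22 of 28 higher and 0 lower (median 2.59), and the strict endothelial set 21 of 23 higher and 0 lower (median 4.17; whole class 22 of 25, 0 lower, 3.39). The CLP to sham medians were 2.15 in macrophages and 2.22 in fibroblasts.

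Saa3 in macrophages stood at 0.70 CPM in control, 2.04 in sham, 52425 in CLP and 51039 in stimulated, a stimulated to sham log2 ratio of 14.60 (14.21 to 15.05). Both septic libraries were high, and their levels differed little. In the stimulated library Saa3 also reached 5918 CPM in lymphocytes and 3425 CPM in neutrophils, classes of reference barcodes outside the 3 classes that should make little of it. Fibroblasts, at 6754 CPM, were near the lymphocyte level, so their Saa3 is read as background, and so is that of the strict endothelial set at 1985 CPM. After thinning each macrophage to 1500 UMIs, 95.9% of stimulated and 0.126% of sham macrophages had a Saa3 UMI (100% and 0.326% unthinned), but so did 85.3% of lymphocytes of the stimulated library. The thinning left out 613 stimulated and 502 sham macrophages and 16 lymphocytes of the stimulated library, and unthinned median depths in stimulated were 6796 UMIs in macrophages and 4760.5 in lymphocytes.

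Lcn2 in macrophages was 5.32 CPM in control, 16.4 in sham, 3103 in CLP and 6278 in stimulated, a log2 ratio of 8.58 (8.44 to 8.73). In fibroblasts it was 2.73, 2.29, 2778 and 4441 CPM in the same order (10.90, 10.41 to 11.49). The strict endothelial set had 26.6, 14.5, 656 and 8351 CPM (9.16, 8.93 to 9.42). The stimulated library was the highest of the 4 in each, and lymphocytes there had 1664 CPM and neutrophils, whose granules hold lipocalin 2, 18838 CPM. Metallothionein 2 (Mt2), which binds zinc, was 122 CPM in sham and 3652 in stimulated macrophages (log2 ratio 4.91), 1235 and 6777 CPM in fibroblasts (2.46) and 25.2 and 4094 CPM in the strict endothelial set (7.34). Its level in lymphocytes of the stimulated library was 445 CPM, below all 3.

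Other acute phase members differed by class, and some were also high in the reference cells. Serpina3n, a secreted inhibitor of serine proteases, was 44.0, 98.4, 3567 and 3135 CPM in fibroblasts of control, sham, CLP and stimulated (4.99, 4.91 to 5.08), against 11.8 CPM in lymphocytes of the stimulated library. Chil1, a chitinase-like protein outside the list, was 3.44 CPM in sham and 536 in stimulated fibroblasts (7.27), with 876 in CLP and 459 CPM in neutrophils of the stimulated library. Orm1, the lipid-binding orosomucoid 1, was at 0 counts in sham and 154 CPM in the stimulated strict endothelial set, at least 497-fold higher taking 3 counts over the strict set as the floor, with 15.8 CPM in lymphocytes of the stimulated library and 561 in neutrophils. Hp (haptoglobin, which binds free haemoglobin) in that set was 1.76 CPM in sham, 11.4 in CLP and 1041 in stimulated (9.17), while neutrophils had 3619 CPM. Macrophage Hp, at 379 CPM in stimulated, was below the 486 CPM of lymphocytes. The complement gene C3 in fibroblasts was 633 CPM in sham, 1806 in CLP and 648 in stimulated (0.03, −0.01 to 0.08), so it stood high in CLP alone.

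**Figure D2:**
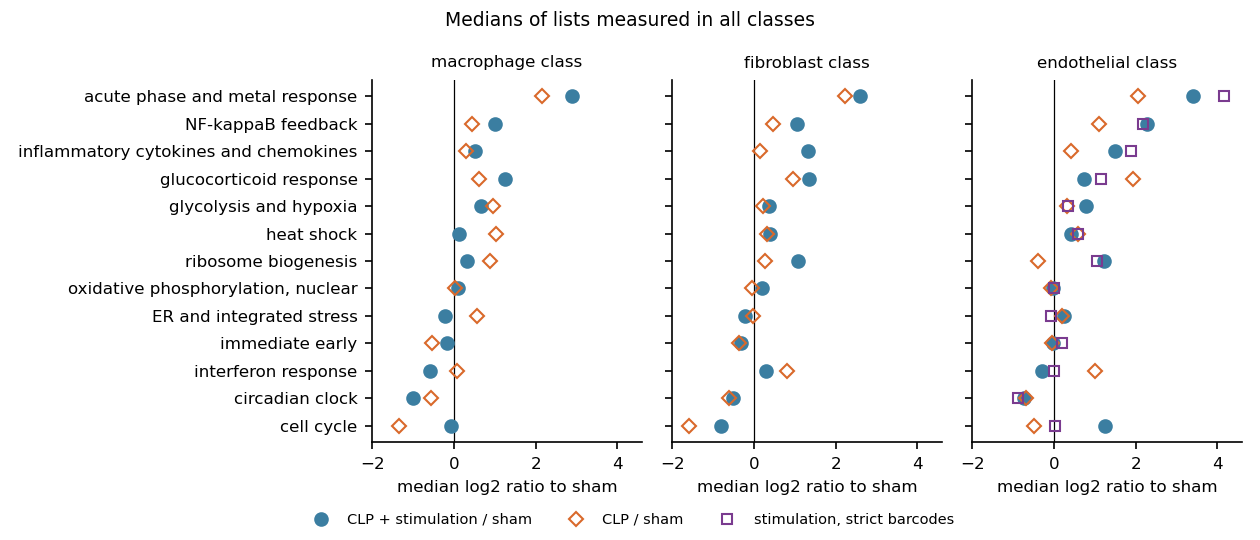
Median log2 ratio to sham (horizontal axis) of the gene lists measured in all 3 classes, as filled circles for stimulated, open diamonds for CLP and open squares for the strict endothelial set of the stimulated library. The acute phase list has the highest median in each panel, 2.89 in macrophages and 2.59 in fibroblasts; the endothelial cell cycle median of 1.25 becomes 0.02 in the strict set.

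Of the 20 M1 genes, 10 were called higher and 2 lower in stimulated than in sham macrophages, with a median log2 ratio of 1.01, where the CLP to sham median was −0.04. With 5 CPM added to both values the M1 median was 0.39. Of the 21 M2 genes, 5 were called higher and 10 lower, with a median of −0.91 and a CLP to sham median of −0.62. Thus the inflammatory list had the higher median of the 2 in the stimulated library, and each list held genes of both directions. Against the control library in place of sham the M2 median was −0.41.

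Interleukin 1 beta (Il1b), the main inflammasome cytokine, was 156, 157, 365 and 905 CPM in macrophages of control, sham, CLP and stimulated (2.53, 2.48 to 2.58). The lymphocytes of the stimulated library had 936 CPM of it, so the macrophage level is not above background there. Il1a, its sister cytokine, was 10.8, 11.6, 14.3 and 52.7 CPM (2.19, 2.00 to 2.38), with 15.8 CPM in lymphocytes, and was high in the stimulated library alone. Cd38, an enzyme that consumes NAD, was 47.2 CPM in sham, 161 in CLP and 317 in stimulated (2.74). Il6 was 7.57 CPM in sham and 34.5 in stimulated (2.19), Cd80, a costimulatory ligand, 7.40 and 23.7 CPM (1.68), and the formyl peptide receptor Fpr2 4.16 and 79.6 CPM (4.25). Neutrophils of the stimulated library had more of Cd80 and Fpr2 than macrophages, at 41.3 and 211 CPM.

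Not all of the M1 list pointed that way. Tumour necrosis factor (Tnf) was 352, 547, 297 and 222 CPM in control, sham, CLP and stimulated (−1.30, −1.35 to −1.25). Cxcl10, an interferon-induced chemokine, was 252, 933, 265 and 156 CPM (−2.58, −2.63 to −2.53). For both genes sham was the highest library, above control too. Nos2, which makes nitric oxide and defines M1 cells in textbooks, was 1.66 CPM in sham and 1.84 in stimulated (0.15, −0.51 to 0.81) and was not called.

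Some receptors and chemokines of repair-type macrophages were near or above sham in the stimulated library. The mannose receptor Mrc1 was 716, 704, 220 and 833 CPM in control, sham, CLP and stimulated (0.24, 0.21 to 0.27). Pf4, platelet factor 4, belongs to the resident list and was 3021, 3147, 897 and 3158 CPM (0.00, −0.01 to 0.02). Cd163, the haemoglobin scavenger receptor, was 198, 197, 160 and 375 CPM (0.93, 0.88 to 0.98). After thinning, 61.0% of stimulated macrophages had an Mrc1 UMI, against 57.9% in sham, 22.6% in CLP and 6.54% of lymphocytes of the stimulated library (79.6, 84.1, 53.3 and 17.7% unthinned).

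Other M2 genes stood far below sham. The galactose lectins Mgl2 and Clec10a were 735 and 73.1 CPM in sham and 34.2 and 13.9 in stimulated (−4.42 and −2.39), with 9.35 and 8.78 in CLP. The eosinophil chemokine Ccl24 was 209 CPM in sham, 7.64 in CLP and 40.2 in stimulated (−2.38), and Retnla, a resistin-like protein, 268, 49.0 and 142 CPM (−0.91, not called). For these 4 genes sham was highest, stimulated next and CLP lowest. Arg1, arginase 1, was 0.83 CPM in sham and 36.2 in stimulated (5.41, 4.81 to 6.16). After thinning, 1.46% of stimulated macrophages had a UMI of it, against 1.63% of lymphocytes of that library (3.42 and 3.11% unthinned). That share does not stand above background, while the mean thinned UMIs per barcode were 0.0417 in macrophages and 0.0229 in lymphocytes. Ccl17 was 0.21 and 25.2 CPM (6.79), below the 113 CPM of lymphocytes of the stimulated library. Il4ra, the interleukin 4 receptor chain, was 62.2 CPM in sham and 312 in stimulated (2.33).

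Genes of MHC class II, which present antigen to helper T cells, were lower in stimulated than in sham macrophages: 8 of 9 were called lower and 0 higher, with a median of −1.86, and the CLP to sham median was −3.52. H2-Eb1 was 3734, 3757, 217 and 1034 CPM in control, sham, CLP and stimulated (−1.86, −1.88 to −1.84). The invariant chain Cd74 was 9683, 8889, 825 and 4204 CPM (−1.08, −1.09 to −1.07). Both stood between CLP and sham in the stimulated library. The lymphocyte reference, which includes B cells that make these genes, had 1039 and 2613 CPM there. After thinning, 50.3% of stimulated macrophages had an H2-Eb1 UMI, against 62.6% in sham and 10.9% in CLP (65.5, 67.8 and 23.2% unthinned). The Cd74 share went the other way from its level, at 81.6% in stimulated, 77.3% in sham and 32.9% in CLP (87.9, 82.8 and 48.8% unthinned), so no order is read from it. Ciita, the master switch of the class, was 25.9 CPM in sham, 1.45 in CLP and 0.70 in stimulated (−5.16, −6.02 to −4.49), and H2-DMa, which loads peptides, 409, 35.6 and 40.1 CPM (−3.35). Ctss, the protease that trims the invariant chain, was 1058 CPM in sham and 1594 in stimulated (0.59, not called).

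**Figure D3:**
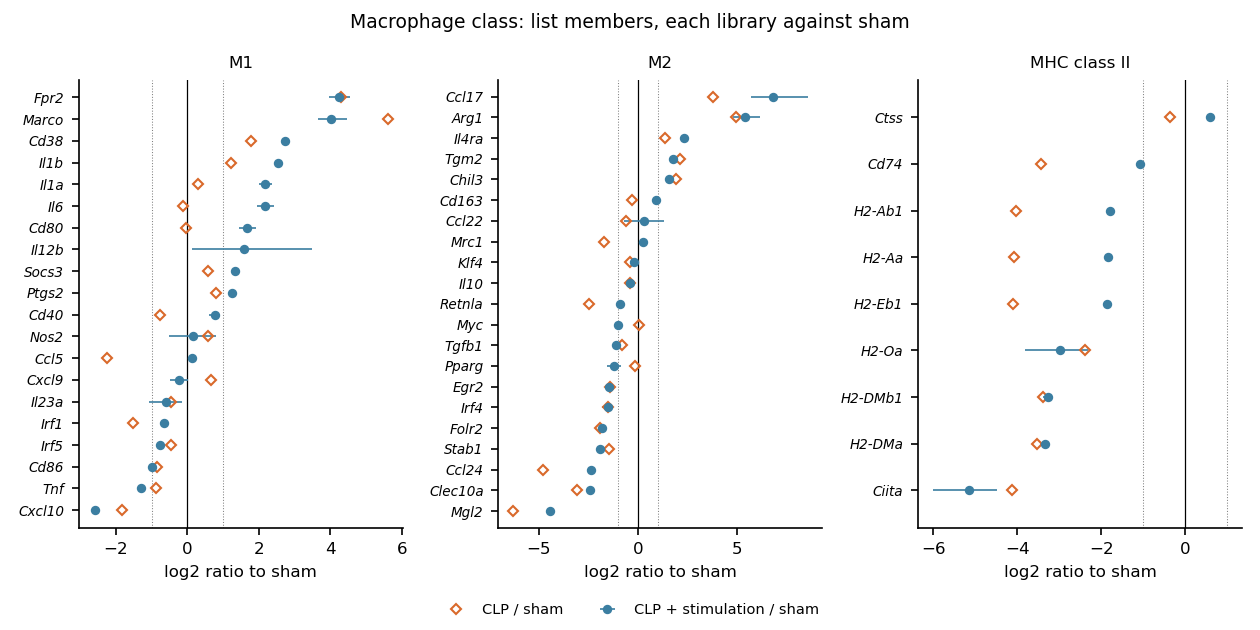
Log2 ratio to sham (horizontal axis) of every measured M1, M2 and MHC class II gene in macrophages, as filled circles with 95% counting intervals for stimulated and open diamonds for CLP; dotted lines mark a log2 ratio of 1 in size and an interval with no upper end is cut short. Mrc1 and Cd163 lie right of 0 in stimulated and left of it in CLP, and H2-Eb1 and Cd74 lie at −1.86 and −1.08.

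Genes of resident cardiac macrophages were mostly low: 11 of 16 were called lower and 0 higher (median −2.28, CLP to sham −1.68). Timd4, a receptor for dying cells and the classic mark of long-lived residents, was 80.0, 77.9, 7.08 and 2.99 CPM in control, sham, CLP and stimulated (−4.69, −5.08 to −4.36). The growth factor Igf1 was 164, 185, 11.1 and 3.12 CPM (−5.88, −6.25 to −5.55), and Gpr34, a lysophospholipid receptor outside the list, 111, 112, 1.20 and 0.75 CPM (−7.19). All 3 were low in both septic libraries, and thinned shares of macrophages with a Timd4 UMI were 11.2% in sham, 1.06% in CLP and 0.375% in stimulated (29.2, 4.41 and 1.62% unthinned). Mrc1, Cd163, Pf4, Mertk and Fcna were the 5 members not called. Aif1, a gene of mature macrophages outside the list, was 592 CPM in sham, 481 in CLP and 47.8 in stimulated (−3.63), and the monocyte chemokine Ccl12 1238, 1042 and 69.8 CPM (−4.15), so these were low in the stimulated library alone.

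Genes of efferocytosis, the uptake of dying cells, were lower for 10 of 17 and higher for 1 (median −1.49, CLP to sham −0.39). Gas6, which bridges dying cells to the Mertk and Axl receptors, was 278 CPM in sham and 12.96 in stimulated (−4.42). Apoe, which carries lipid out of macrophages, was 25350 and 7651 CPM (−1.73). Mertk itself was 31.9 and 55.3 CPM (0.79, not called), and the scavenger receptor Marco was the member called higher, at 2.33 CPM in sham, 115 in CLP and 38.4 in stimulated (4.03). The monocyte-derived list split, with 9 of 17 higher and 4 lower (median 1.03). Ly6c2 and Ccr2, the marks of fresh monocytes, were lower at 13.2 against 27.0 CPM (−1.04) and 13.1 against 44.5 CPM (−1.76). Trem1, an amplifier receptor, was 12.9 and 141 CPM (3.44), with 84 CPM in lymphocytes and 898 in neutrophils, and Thbs1, thrombospondin 1, 13.9 and 97.4 CPM (2.81), below the 116 CPM of lymphocytes. Neutrophil markers in the macrophage class summed to 1304 CPM in sham, 9056 in CLP and 3840 in stimulated, with all 8 detected in each library. S100a8 and S100a9 made up 1964 and 1736 CPM of the last sum. Mmp8 (3.16 CPM in sham and 33.3 in stimulated) and Retnlg (44.2 and 61.5 CPM) were higher in stimulated too. Cxcr2, Mmp9 and G0s2 were lower in stimulated than in sham, and Csf3r was nearly level (23.2 and 22.8 CPM). The part of neutrophil RNA in Trem1, Hp, Fpr2, Cd80, Cd14, Irak3, Il1rn and Csf3, each higher in neutrophils of that library than in macrophages, was not tested.

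Genes that sense bacteria or restrain the answer were higher for a part of each list. Of the endotoxin and inflammasome genes 7 of 16 were called higher and 1 lower (median 0.72). The lipopolysaccharide co-receptor Cd14 was 934 CPM in sham and 2278 in stimulated (1.29), with 2639 CPM in neutrophils, and the inflammasome scaffold Nlrp3 153 and 878 CPM (2.52), while the receptor Tlr4 was 18.1 and 18.6 CPM (0.04, −0.16 to 0.23). Of the NF-kappaB feedback genes 6 of 12 were higher and 0 lower (median 1.01). Tnfaip3, which removes ubiquitin from the pathway, was 169, 244, 354 and 953 CPM in control, sham, CLP and stimulated (1.96), and Irak3, an inactive kinase that blocks Toll-like receptors, 15.1, 15.1, 112 and 167 CPM (3.47), with 468 CPM in neutrophils. Il1rn, the natural interleukin 1 receptor antagonist, was 14.8, 20.7, 179 and 518 CPM (4.64), with 123 CPM in lymphocytes and 600.0 in neutrophils. After thinning, 40.3% of stimulated macrophages had an Il1rn UMI, against 2.49% in sham, 19.8% in CLP and 7.52% of lymphocytes of the stimulated library (65.4, 6.99, 48.7 and 18.3% unthinned).

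Among secreted factors, Csf3, the growth factor of neutrophils, was 0.45, 0.37, 37.1 and 186 CPM in macrophages of control, sham, CLP and stimulated (8.88, 8.03 to 10.09), with 262 CPM in neutrophils of the stimulated library. Thinned, 13.9% of stimulated macrophages had a Csf3 UMI, against 0.063% in sham, 3.23% in CLP and 3.59% of lymphocytes of the stimulated library (24.0, 0.190, 9.02 and 9.32% unthinned). Cxcl13 was 1.09, 8.90, 974 and 348 CPM (5.29), with 12.9 CPM in lymphocytes, so it was highest in CLP, while Csf3 was highest in the stimulated library. The 33 cytokines and chemokines had 14 higher and 7 lower (median 0.52). The interferon response list had 2 of 39 higher and 15 lower (median −0.59, CLP to sham 0.06). Sham against control had 6 of 39 higher and 0 lower (median 0.47), with 36 ratios above 0. The sham library was thus itself above control for most of this list. Ifnb1, interferon beta, was 3.68 CPM in control, 84.8 in sham, 8.78 in CLP and 1.67 in stimulated (−5.65), so sham was the library that stood apart for this gene.

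Some macrophage genes that were higher or lower in CLP than in sham were near the sham level in the stimulated library. The chaperone Hspa1b was 713, 552, 2453 and 550 CPM in control, sham, CLP and stimulated (−0.01), and of 12 heat shock genes 0 were called in stimulated, where 7 were called higher in CLP. Pycard, the inflammasome adaptor, was 152 CPM in sham, 496 in CLP and 146 in stimulated (−0.06). The cell cycle list had 0 of 25 higher and 4 lower in stimulated, against 18 lower in CLP (medians −0.07 and −1.35). The first of these medians became 0.21 under TMM scaling.

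In fibroblasts, genes of the extracellular matrix were lower as a group: 31 of 35 were called lower and 0 higher, with a median of −1.76, and the CLP to sham comparison had 17 lower and a median of −0.94. Fibrillar collagen 1 (Col1a1) was 1318, 1726, 955 and 323 CPM in control, sham, CLP and stimulated (−2.42, −2.47 to −2.36). Col15a1, a collagen beside basement membranes, was 702, 784, 91.6 and 32.2 CPM (−4.60, −4.77 to −4.44). Elastin (Eln) was 632, 676, 182 and 61.8 CPM (−3.45) and Sparc, which binds collagen, 4237, 4638, 2215 and 943 CPM (−2.30). All 4 stood lowest in the stimulated library. The rule that defines fibroblasts used Col1a2, Dcn and Col3a1, which were left out of the list. The basement membrane collagens Col4a1 and Col4a2 were 657 and 256 CPM in sham and 1311 and 475 in stimulated (1.00 and 0.89, neither called), with endothelial markers in the class at 250 CPM in sham and 1350 in stimulated. Fabp4 made up 93.3 and 1212 CPM of these sums. Cldn5 and Esam were also higher in stimulated than in sham, while Kdr, Tie1, Egfl7, Emcn and Eng were lower. Fbln2 and Mfap5 were the other 2 members without a call (−0.93 and −0.76).

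Myofibroblast genes, of cells that contract scars, were lower for 10 of 12 and higher for 1 (median −2.69, CLP to sham −2.28). Smooth muscle actin (Acta2) was 596, 517, 58.3 and 40.8 CPM in control, sham, CLP and stimulated (−3.66, −3.81 to −3.52). Periostin (Postn) was 370, 417, 109 and 89.2 CPM (−2.23). Both septic libraries were low for both genes. Smooth muscle markers in the class, which include Acta2, moved with the list, at a sum of 1213 CPM in sham, 135 in CLP and 106 in stimulated: Myh11 was 93.4, 10.02 and 8.70 CPM and the pericyte gene Notch3 10.6, 1.92 and 1.97 CPM. Their part in the list was not tested. The factor Runx1 was the member called higher, at 44.0 CPM in sham and 105 in stimulated (1.26), and Tnc, at 7.11 and 4.77 CPM, was not called (−0.57). General fibroblast markers moved less, with 7 of 16 lower and 1 higher (median −0.90). Tcf21 and Pdgfra, the factor and the receptor that mark cardiac fibroblasts, were 252 and 348 CPM in sham and 291 and 298 in stimulated (0.20 and −0.23, neither called), while Clec3b was 990 and 119 CPM (−3.05) and Cd248 184 and 13.4 CPM (−3.78).

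Prg4, which encodes lubricin, stood apart from the other matricellular genes. It was 382, 381, 6002 and 12904 CPM in control, sham, CLP and stimulated fibroblasts (5.08, 5.04 to 5.12), against 34.0 CPM in lymphocytes of the stimulated library. After thinning, 88.2% of stimulated fibroblasts had a Prg4 UMI, against 10.2% in sham, 74.6% in CLP and 7.52% of lymphocytes of the stimulated library (92.9, 21.4, 88.7 and 23.3% unthinned). The 1% of barcodes richest in it held 16.1% of its counts in stimulated and 40.9% in sham. Of the 15 matricellular genes 10 were lower and 1, Prg4, higher (median −1.32). Matrix enzymes and inhibitors had 6 of 24 higher and 6 lower, beside 6.73% higher and 25.7% lower over all fibroblast genes. Their lower share is thus near that of all genes. The crosslinker Lox was 60.3 CPM in sham and 376 in stimulated (2.64), the collagenase inhibitor Timp1 153 and 920 CPM (2.58) and the protease Mmp3 107 and 590 CPM (2.46), while Timp3 was 1048 and 264 CPM (−1.99) and Loxl2 214 and 33.3 CPM (−2.68).

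Fibroblast cytokines had 18 of 32 higher and 4 lower, with a median of 1.31 and a CLP to sham median of 0.15. Csf3, Il1a and Cxcl13 had the highest ratios. Fibroblast Csf3, at 56.25 CPM in stimulated, was near the 49.1 CPM of lymphocytes and below the 262 CPM of neutrophils there. The neutrophil marker total of fibroblasts was 709 CPM for stimulated, 420 for CLP and 271 for sham. Only G0s2 among these markers was lower in stimulated than in sham. The part of neutrophil RNA in the cytokine calls was not tested. Cxcl14 was 209, 156, 418 and 1136 CPM in control, sham, CLP and stimulated (2.87, 2.8 to 2.93), and the neutrophil chemokine Cxcl5 4.15, 9.10, 24.7 and 95.3 CPM (3.38). Ccl11, eotaxin, was 29.5, 18.2, 11.4 and 90.6 CPM (2.31), high in the stimulated library alone. Il33, an alarm signal, was 39.1 CPM in sham and 139 in stimulated (1.83). The interferon response list, in contrast, had 5 of 38 higher in stimulated and 15 higher in CLP (medians 0.29 and 0.81). Col2a1, a cartilage collagen with the lowest ratio of all named genes (−8.73), had its sham counts in 8 barcodes, and is given for that reason only.

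**Figure D4:**
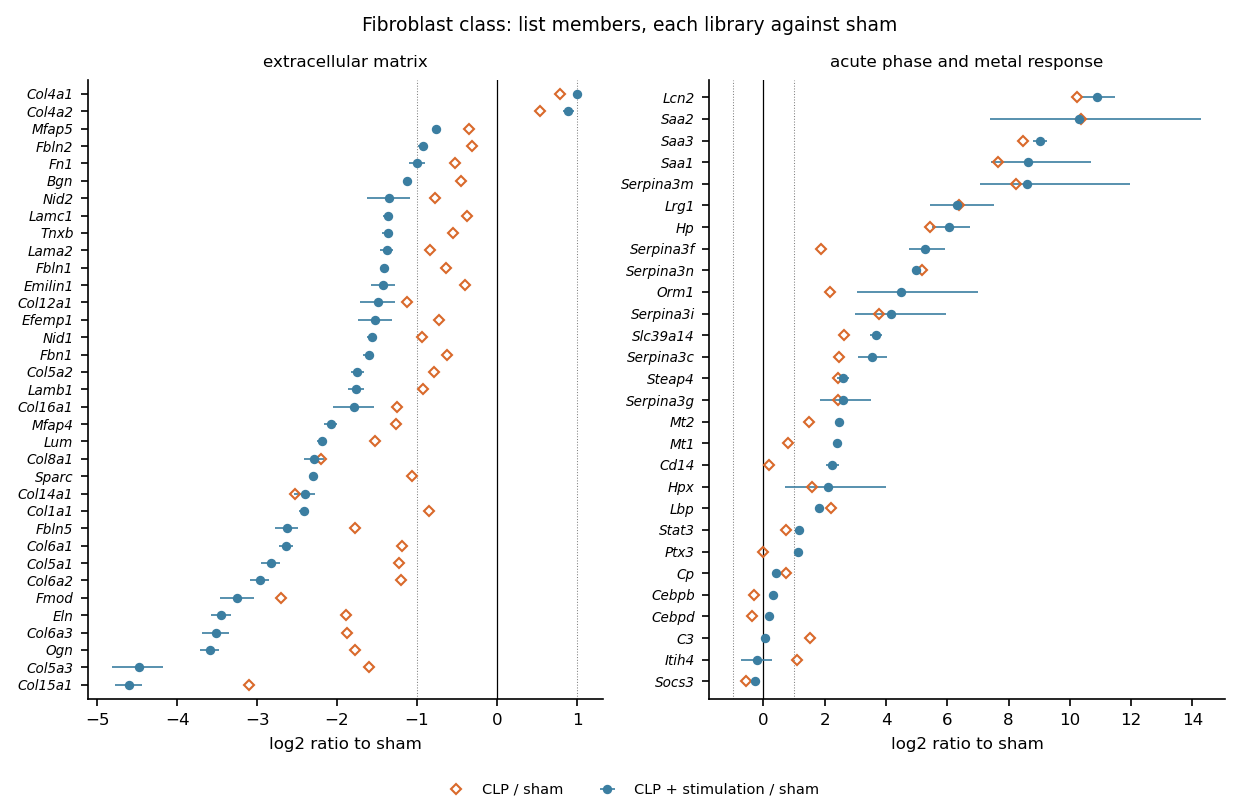
Log2 ratio to sham (horizontal axis) of extracellular matrix genes (left) and acute phase genes (right) in fibroblasts, as filled circles with 95% counting intervals for stimulated and open diamonds for CLP; dotted lines mark a log2 ratio of 1 in size and an interval with no upper end is cut short. Most matrix genes lie left of −1, Col15a1 at −4.60 and Col1a1 at −2.42, while Serpina3n lies at 4.99.

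In the strict endothelial set, genes of vessel activation were higher for 15 of 22 and lower for 2, with a median of 2.48; the whole class had 15 higher, 3 lower and a median of 1.69, and 0.88 in CLP. Icam1, the adhesion molecule that arrests leukocytes, was 170, 138, 671 and 1016 CPM in control, sham, CLP and stimulated (2.88, 2.78 to 2.97). P-selectin (Selp), which lets them roll, was 8.49, 6.83, 18.3 and 110 CPM (4.00, 3.62 to 4.41). Vcam1 was 35.2, 41.7, 243 and 174 CPM (2.06), highest in CLP, whereas Icam1 and Selp were highest in the stimulated library. Plaur, the urokinase receptor, was 17.2 CPM in sham, 42.4 in CLP and 734 in stimulated (5.41), with 1157 CPM in neutrophils, and the chemokine Ccl2 51.7, 134 and 470 CPM (3.19). Csf3 was 0.93, 3.16 and 189 CPM (7.58, 6.73 to 8.80), with 49.1 CPM in lymphocytes of the stimulated library and 262 in neutrophils. Icam2 and Esm1 were the 2 lower members (−1.37 and −2.03).

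Genes of vessel growth were lower for 11 of 22 and higher for 2 in the strict set (median −0.80; whole class 12 lower, 1 higher, −1.35, CLP −0.36). The apelin receptor Aplnr was 187, 299, 36.8 and 3.15 CPM in control, sham, CLP and stimulated (−6.49, −7.70 to −5.64) and its ligand Apln 36.5, 37.4, 3.74 and 2.8 CPM (−3.65, −4.96 to −2.74). The VEGF receptor Kdr was 891, 1065, 429 and 354 CPM (−1.59) and the co-receptor Nrp1 590, 707, 399 and 83.3 CPM (−3.08). All 4 were lowest in the stimulated library, and the apelin pair was already low in CLP. Flt1, the decoy-like VEGF receptor, was 881 and 1158 CPM in sham and stimulated (0.39, not called). Placental growth factor (Pgf) was 21.5 CPM in sham, 46.9 in CLP and 245 in stimulated (3.51) and Sox17 134, 272 and 320 CPM (1.25), the 2 called higher.

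Some endothelial genes set the stimulated library apart from the other 3. Inhbb, which encodes an activin subunit, was 2.03, 1.14, 6.61 and 423 CPM in control, sham, CLP and stimulated in the strict set (8.47), and after thinning 33.4% of barcodes of the whole stimulated class had a UMI, against 0.173% in sham and 0.327% of lymphocytes of the stimulated library (54.3, 0.518 and 0.932% unthinned). C1qtnf9, an adiponectin-like secreted protein, was 442, 488, 445 and 21.4 CPM in that set (−4.50). Timp4, by contrast, was 375, 302, 1372 and 341 CPM (0.17), high in CLP alone. In the whole class, Cfd and the neutrophil precursor genes Ctsg, Mpo and Elane had high ratios, and their counts came from 4, 9, 13 and 16 of the 725 barcodes. The NF-kappaB feedback list in the strict set had 10 of 11 higher and 0 lower (median 2.17; whole class 10 of 12, 2.27) and the cytokines 16 of 23 higher and 3 lower (1.87; whole class 19 of 32, 4 lower, 1.48). Cell cycle genes had 1 of 22 higher and 1 lower there (median 0.02), where the whole class had 17 of 25 higher and a median of 1.25.

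**Figure D5:**
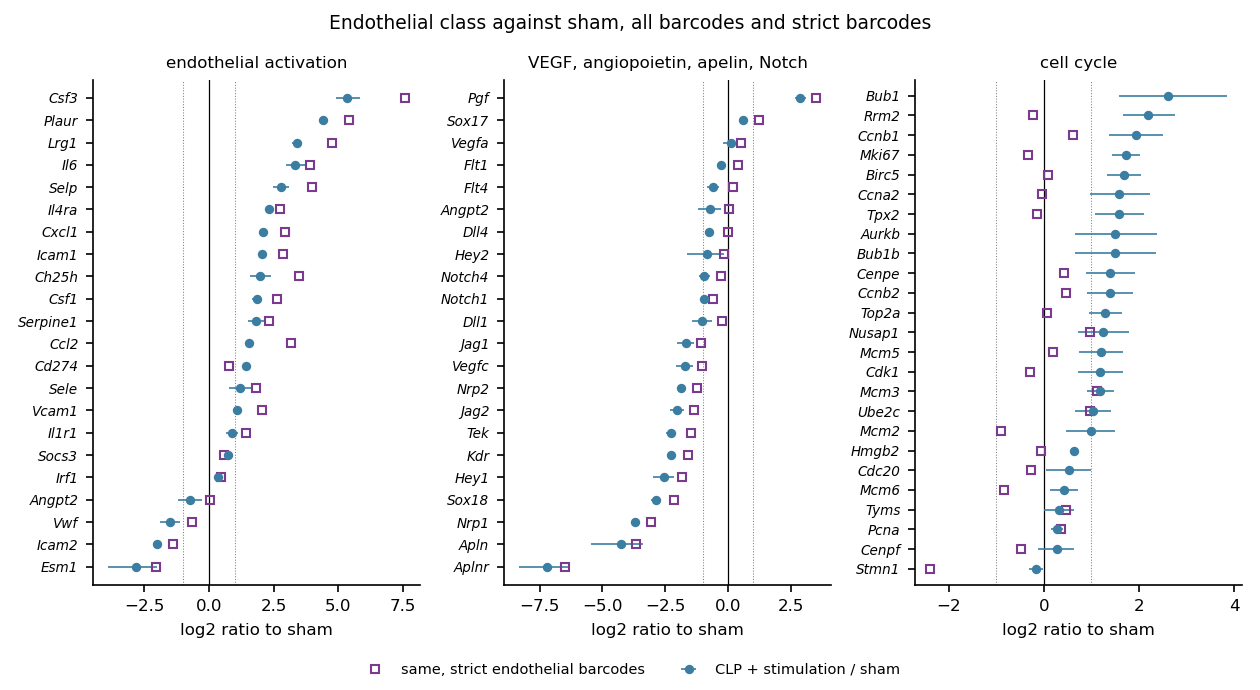
Log2 ratio of stimulated to sham (horizontal axis) of endothelial activation, vessel growth and cell cycle genes, as filled circles with 95% counting intervals for the whole endothelial class and open squares for the strict set; dotted lines mark a log2 ratio of 1 in size. Icam1 and Selp lie at 2.88 and 4.00 in the strict set and Aplnr at −6.49, while the cell cycle genes lie higher in the whole class than in the strict set.

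Over the 11607 genes measured in all 3 classes, 211 were called higher in every class (1.82%) and 1118 lower in every class (9.63%). Genes higher in all 3 include ones that stood higher still in reference cells: Ngp, a neutrophil granule gene, was 302 CPM in stimulated macrophages and 23302 CPM in neutrophils. Ctla2a, a cathepsin inhibitor, was 62.7 CPM in sham and 1360 in stimulated macrophages (4.44), 3.75 and 167 in fibroblasts (5.47) and 443 and 4781 in the endothelial class (3.43), with 757 CPM in lymphocytes of the stimulated library. The zinc finger gene Zfp52 was 10.9 and 127 CPM in macrophages (3.54), 4.89 and 93.0 in fibroblasts (4.24) and 6.06 and 89.5 in the whole endothelial class (3.88), with 91.7 CPM in lymphocytes, so all classes of the stimulated library had similar levels. Among genes lower in all 3, Ccnd1, the cyclin D1 that starts the cell cycle, was 138 and 6.55 CPM in macrophages (−4.40), 107 and 9.53 in fibroblasts (−3.48) and 392 and 32.1 in the endothelial class (−3.61). Cavin2, a coat protein of caveolae, was 62.7 and 1.67, 55.0 and 6.01, and 1513 and 82.6 CPM in the same order (−5.21, −3.18 and −4.19). For both genes CLP lay between sham and stimulated in each class. In sham macrophages 1% of barcodes held 54.9% of the Cavin2 counts, and the endothelial markers in that class, 7 of 8 of them lower, summed to 996 CPM in sham and 311 in stimulated; their part in the macrophage value was not tested.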

How the data were processed

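Single-cell RNA of 4 mouse heart libraries (Chromium 3' v3, polyA RNA, per the labels) was used as UMI counts per gene and barcode as the authors deposited them; per the file headers they come from Cell Ranger 5.0.0. STAR and mm10 are named in the submitters' processing notes. Barcodes were filtered and placed in 3 classes as described above, with no doublet caller, and counts were summed per class and library. The class rules, gene lists and named genes were chosen with earlier results of these data known, so nothing here is independent support for them.

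Log2 ratios used a prior count of 0.5, with exact conditional binomial 95% intervals. For a gene at 0, 3 counts over the class (or strict set) were taken as the floor. A list is described by its calls and median over members with at least 20 counts in the pair. Intervals and floors cover counting error only. Reference classes, outside the 3 classes and with matrix genes under 20 per 10000, were neutrophils (Csf3r, Cxcr2 and Retnlg at least 2 UMIs and 5 per 10000; 365 barcodes in the stimulated library) and lymphocytes (Cd3d, Cd3e, Cd3g, Cd79a and Cd79b at least 2 UMIs; 322 barcodes). Shares of barcodes with a UMI were compared after thinning to 1500 UMIs.

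Named genes were, for each class, the 10 highest and 10 lowest called ratios with 50 CPM or more in the higher library. Passed over were unnamed models, rule genes, listed markers of other cells, sex-linked genes, genes of mitochondria, ribosomes, haemoglobin and immunoglobulins, and those at more than 10 times the level in another class or reference. Also named were the 3 highest and 3 lowest members of each of 35 lists, every M1, M2 and MHC class II member, the 8 highest and 8 lowest shared by all classes, and the 5 highest and 5 lowest per class that lay within 0.5 log2 of sham in only one septic library. The text prints a part of these, and other list members it names were chosen after their values were seen. TMM factors came from edgeR 4.0.16 in R 4.3.3; the rest used Python 3.11.15, numpy 2.4.6, scipy 1.17.1, pandas 2.3.3 and matplotlib 3.10.9. The calculation was tested on simulated data. Alternatives were 9 planned settings and 1 added after seeing the data (the strict endothelial set). Promoters came from RefSeq (GRCm38.p6).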

Additional observations from a re-analysis of the deposited data

Results flagged for a closer look

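The cell cycle list moved in opposite directions in 2 classes under the same contrast of stimulated over sham: its median log2 ratio was 1.251 in the endothelial class and −0.8109 in fibroblasts. The difference was not tested, since each class has 1 library per group. In the strict endothelial set the median was 0.016, with 1 of 22 genes higher and 1 lower, and with barcodes weighted equally the fibroblast median was 0.23.

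Data outside the 3 classes held signal. In the stimulated library 37.61% of kept barcodes met no class rule, against 21.0% in sham, 24.5% in control and 26.6% in CLP. Barcodes in no class with under 1500 UMIs were 14.88% of kept barcodes in the stimulated library (95% exact binomial interval 14.1 to 15.6), against 6.95% in sham, 12.0% in control and 10.4% in CLP. Saa3 in these shallow barcodes was 18169 CPM in stimulated, 7196 in CLP, 5.64 in sham and 0 in control. The 8 neutrophil markers summed to 16494 CPM in stimulated, 10103 in CLP, 7026 in sham and 5040 in control. Macrophage and fibroblast markers were also higher in stimulated than in sham, at 2886 against 1922.5 CPM and 2372 against 1179 CPM. In control and CLP they were 1591 and 1094 CPM for macrophages and 1817 and 974 CPM for fibroblasts. Which cells these barcodes came from was not tested.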

How the results depend on the processing

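No paired analysis was possible because each group has 1 library, and no library could be left out for the same reason. Over 522 single genes and 4807 comparisons with an alternative, 3265 values stayed within their counting interval and 1537 moved beyond it. These counts include any change of sign in a gene not called in the main setting. For genes called there, 5 values changed sign. Those with a changed sign were endothelial Igfbp6 (−0.62 without barcodes holding other classes' markers, −0.79 in the strict set), endothelial Rrm2 (−0.22 in the strict set), and, with barcodes weighted equally, fibroblast Ccl6 (0.34) and Top2a (0.75). Of 64 list medians 13 changed sign under a setting.

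Counts of called genes moved by over 1.5 times as follows. Macrophages had 864 higher, 1309 under TMM scaling and 411 with 5 CPM added, and 3321 lower, 983 with 5 CPM added and 2151 with at least 100 counts. Fibroblasts had 878 higher, 1423 under TMM, 393 with 5 CPM added and 575 with at least 100 counts, and 3348 lower, 1443 and 2224 under the last 2. The endothelial class had 1386 higher, 812 with 5 CPM added and 859 in the strict set, and 3259 lower, 1459 with 5 CPM added.

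The log2 ratio of the macrophage share was −0.11, but −0.39 with class thresholds doubled, −0.034 without barcodes holding other classes' markers, 0.0073 with at least 1500 UMIs and 0.21 against control, so its direction is not settled. That of fibroblasts was −0.11, then −0.57 doubled, −0.23 with at least 1500 UMIs and −0.33 against control. That of endothelial barcodes was −1.36, then −1.66 doubled, −1.69 without mixed barcodes, −1.14 with at least 1500 UMIs and −1.72 in the strict set.

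List medians moved beyond their counting interval as follows. M1 (1.01) was 1.28 under TMM, 1.29 without mixed barcodes and 1.17 with equal weights; within its wide interval it fell to 0.39 with 5 CPM added and to 0.76 at a mitochondrial limit of 10%. M2 (−0.91) was −0.64 under TMM, −0.65 with 5 CPM added, −1.04 at a mitochondrial limit of 10%, −0.69 doubled, −0.61 with equal weights and −0.41 against control. MHC class II (−1.86) was −1.59, −1.84, −1.88, −1.82 and −1.95 in the first 5 of these settings, in that order, and −1.93 without mixed barcodes. The fibroblast acute phase median (2.59) was 2.15 with 5 CPM added. Extracellular matrix (−1.76) was −1.47 under TMM and −1.92 with equal weights. Endothelial activation (1.69) was 1.94 under TMM, 1.45 with 5 CPM added, 2.61 without mixed barcodes, 1.98 with equal weights, 1.86 against control and 2.48 in the strict set. The cause of these moves was not tested.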

Other observations

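Genes that answer glucocorticoids, the stress steroids of the adrenal gland, were higher for 10 of 17 in stimulated over sham macrophages, 9 of 17 in fibroblasts and 11 of 16 in the strict endothelial set, with 0 lower in each (medians 1.25, 1.35 and 1.16). CLP over sham had 8 of 17 higher in macrophages, 8 of 16 in fibroblasts and 12 of 17 in the whole endothelial class (medians 0.61, 0.94 and 1.94), and stimulated over sham 7 of 16 in that whole class (0.72). Fkbp5, a chaperone partner of the glucocorticoid receptor, was 6.91, 8.94, 94.1 and 171 CPM in macrophages of control, sham, CLP and stimulated (4.26) and 5.48, 7.87, 117 and 180 CPM in the strict endothelial set (4.50). Tsc22d3, another classic target, was 122 CPM in sham, 348 in CLP and 134 in stimulated in that set (0.14), high in CLP, but 201, 220 and 480 CPM in macrophages (1.25), high in stimulated. It was chosen after its values were seen. Clock genes split: 8 of 16 were lower and 2 higher in macrophages, 7 of 16 lower and 4 higher in the strict set (whole class 7 and 2) and 5 of 17 lower and 0 higher in fibroblasts (medians −1.01, −0.87, −0.73 and −0.52). The fibroblast share is near the 25.7% of all genes called lower there. Dbp, a clock output gene, was 30.4 and 4.22 CPM in sham and stimulated macrophages (−2.84) and 110 and 5.95 CPM in the strict set (−4.17). The hour of sampling is not given in the sources used here, and its part was not tested.

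Ribosome biogenesis genes were higher for 11 of 16 in fibroblasts (median 1.08, CLP to sham 0.27) and 9 of 16 in the strict endothelial set (1.04; whole class 11 of 16, 1.23, CLP to sham −0.38), against 2 of 16 in macrophages (0.32, CLP to sham 0.89). Nop58, a nucleolar RNA-modifying factor, was 53.6, 41.5 and 146 CPM in sham, CLP and stimulated in the strict set (1.45), with 167 CPM in lymphocytes of the stimulated library, but 232, 204 and 245 CPM in fibroblasts (0.08) and 116, 112 and 71.4 CPM in macrophages (−0.70), so it did not move with the list in fibroblasts. Fatty acid handling in the strict set split, with 6 of 16 higher and 5 lower (whole class 4 and 5). Lpl, the lipase that frees fatty acids from lipoproteins, was 447, 3742 and 2636 CPM in sham, CLP and stimulated (2.56), and its anchor Gpihbp1 1077, 2857 and 2593 CPM (1.27). The fatty acid carrier Fabp5 was 1608, 896 and 282 CPM (−2.51), and the water and glycerol channel Aqp7, outside the list, 161 CPM in sham and 0.86 in stimulated in the whole class (−7.41). Oxidative phosphorylation genes had 0 of 21 called in each class.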
